A study of Mus musculus with 6 samples.

Results

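The nuclear lamina and HMGB genes described here are 10 genes chosen by symbol, 10 of the 55487 genes in the count table. They encode the lamins (Lmna, Lmnb1 and Lmnb2), proteins of the inner nuclear membrane (Lbr, Tmpo, Emd, Sun1 and Sun2) and a pair of chromatin-bound high mobility group proteins (Hmgb1 and Hmgb2). Each symbol had 1 protein-coding entry, and all 10 were among the 16962 genes with enough counts to be tested. RNA was measured in 6 poly(A) libraries of MEFs, wild-type primary fibroblasts from mouse embryos. The groups were P6 (passage 6, labelled senescent) and P1 (passage 1, labelled non-senescent), where cultures are replated at each passage. Each of these groups has 1 library from cells that received α-amyrin (20 µM), 1 from cells that received β-amyrin (20 µM) and 1 from vehicle-treated cells, after 3 days. α-Amyrin and β-amyrin are isomeric plant triterpene alcohols with the ursane and the oleanane skeleton. All groups shared the genotype and the serum-containing medium, and the labels do not say whether P6 and P1 came from the same isolate of cells.

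The lamina is a mesh of lamin filaments under the inner nuclear membrane, and membrane proteins such as LBR, the LAP2 proteins and emerin tether it to chromatin. SUN proteins span the inner membrane and join nesprins of the outer membrane, so that the lamina is coupled to the cytoskeleton. HMGB1 and HMGB2 bend DNA, and outside the cell HMGB1 acts as a danger signal. Loss of lamin B1, loss of HMGB2 and release of HMGB1 from the nucleus are widely used marks of senescent fibroblasts.

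Total counts ran from 18798418 in the P6 α-amyrin library to 28752332 in the P1 α-amyrin library. Cdkn2a, the locus of the p16 and p19 cell cycle inhibitors, stood at 115 to 116 CPM (counts scaled to library size by TMM) in P6 libraries and 17.2 to 19.4 CPM in P1 libraries. The summed level of 13 fibroblast markers was 51462 to 57200 CPM at P6 and 36856 to 44172 CPM at P1. A large part of this sum was Fn1, at 28955 to 30466 CPM at P6 and 10795 to 13589 CPM at P1. Of these 13, 9 were called lower and 2 higher in the fit described below. Markers of other cell types differed with passage as well. The 17 macrophage markers summed to 4302 to 5891 CPM at P6 and 50.4 to 401 CPM at P1, and none was at 0 in all libraries. Called lower were 8 of 8 mesothelial, 7 of 7 muscle, 6 of 7 cartilage and bone, 3 of 4 endothelial, 3 of 5 neural and glial and 2 of 3 epithelial markers tested, and 1 each of cartilage and bone, endothelial, and neural and glial markers was higher. Mesothelial markers summed to 9.39 to 11.0 CPM at P6 and 165 to 206 CPM at P1, muscle markers to 4.94 to 6.09 CPM at P6 and 81.1 to 94.6 CPM at P1, and cartilage and bone markers to 135 to 203 CPM at P6 and 478 to 533 CPM at P1. Endothelial markers summed to 13.0 to 29.5 CPM at P6 and 32.6 to 33.8 CPM at P1, with Cldn5 at 0 throughout. Epithelial markers summed to 0.423 to 1.43 CPM at P6 and 8.53 to 11.7 CPM at P1, and neural and glial markers to 151 to 183 CPM at P6 and 152 to 189 CPM at P1. The part of these cell types in the results below was not tested. In bulk RNA, fewer cells of a type and less RNA per cell cannot be told apart.

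P6 libraries held less RNA of most lamina and HMGB genes than P1 libraries. In the fit of edgeR across all genes, 8 of the 10 genes were lower at P6, 1 was higher (Sun2) and 1 was not called (Sun1). Over all tested genes, 29.1% were called lower and 30.0% higher, and the median log2 change was 0.00, against a median of -0.88 for the 10 genes. All 3 P6 libraries lay below all 3 P1 libraries for the same 8 genes, which 32.2% of tested genes did. For Sun2 all 3 P6 libraries lay above all 3 P1 libraries, which 32.5% of tested genes did, and only Sun1 overlapped between passages. The 3 libraries of a passage had different treatments, so the SDs below are spreads over treatments and not over replicate cultures.

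**Figure D1:**
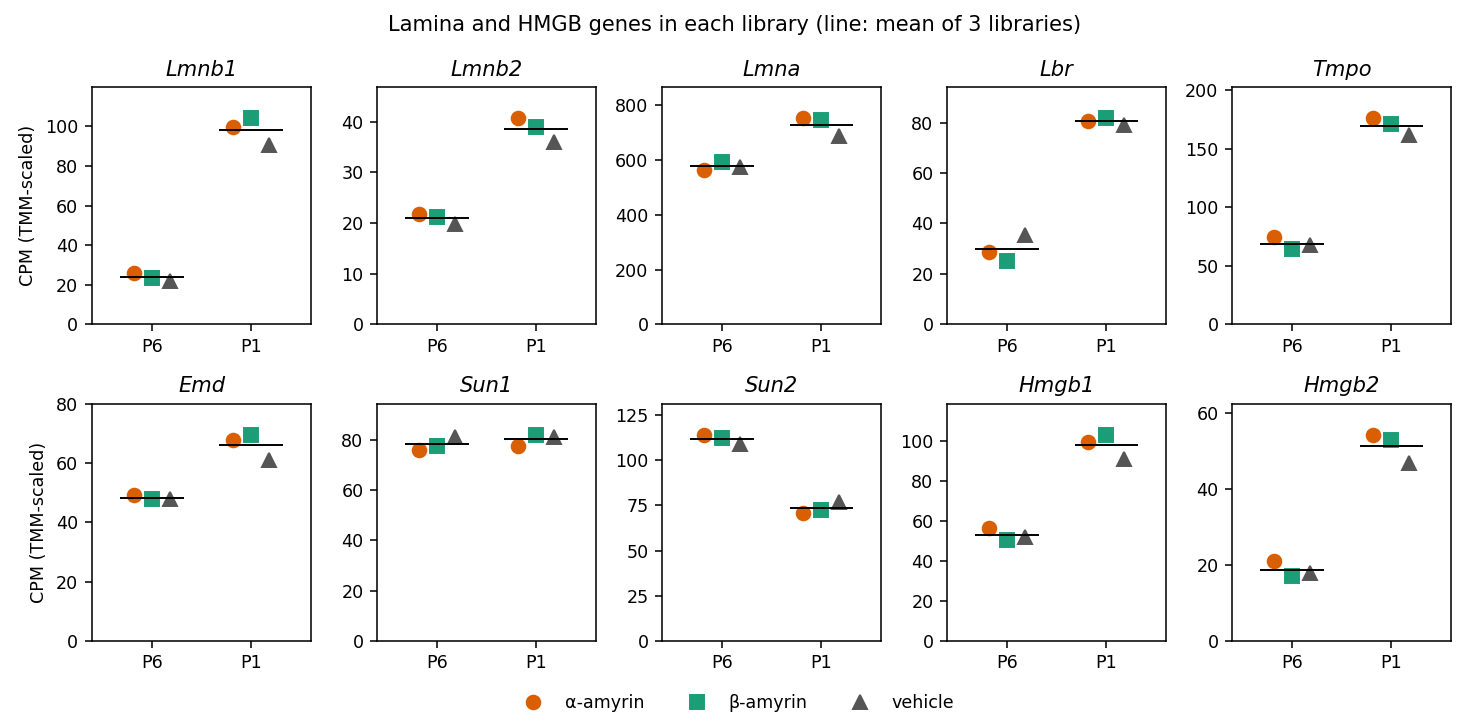
CPM of the 10 genes in each library, with P6 left of P1 in each panel. Symbols stand for the α-amyrin, β-amyrin and vehicle library and the line for the mean of the 3 libraries of a passage. The P6 libraries sit below the P1 libraries for 8 genes, above them for Sun2 and among them for Sun1.

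Lmnb1 had the largest decrease of the 10 genes. It encodes lamin B1 (ENSMUSG00000024590, mm10 chr18:56707813-56753424, plus strand). Its level was 26.2, 23.6 and 21.9 CPM in the P6 α-amyrin, β-amyrin and vehicle libraries and 99.8, 104 and 90.7 CPM in the P1 ones. Every P6 library was far below the lowest P1 library, and within each passage the vehicle library was the lowest. The mean was 23.9 ± 2.18 CPM at P6 and 98.2 ± 6.86 CPM at P1 (SD, n = 3 libraries each), so P6 held 24.3% of the P1 level. The fitted log2 change was -2.04 ± 0.06 (SE, edgeR adjusted p = 2.58e-06), a 4.12-fold decrease. Only 1.76% of tested genes had a lower log2 change.

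Lmnb2, the gene of lamin B2 (ENSMUSG00000062075, mm10 chr10:80901203-80918245, minus strand), fell less. It measured 21.8, 21.3 and 19.8 CPM in the P6 α-amyrin, β-amyrin and vehicle libraries and 40.7, 38.9 and 36.0 CPM in the P1 ones. The vehicle library was again the lowest at each passage, and the passages did not overlap. The log2 change was -0.88 ± 0.06 (SE, edgeR adjusted p = 3.43e-05), or 1.84-fold lower, with 8.09% of tested genes changing further down. The 95% intervals of the log2 changes, -2.19 to -1.90 for Lmnb1 and -1.02 to -0.74 for Lmnb2, did not overlap.

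Lmna, the gene of lamins A and C (ENSMUSG00000028063, mm10 chr3:88480147-88509956, minus strand), had the highest FPKM of the 10 genes at both passages. It measured 564, 593 and 573 CPM in the P6 α-amyrin, β-amyrin and vehicle libraries and 752, 744 and 688 CPM in the P1 ones. P6 libraries were all lower, although the gap was small beside that of the B-type lamins. Its log2 change came to -0.33 ± 0.05 (SE, edgeR adjusted p = 0.000756), with 25.9% of tested genes lower. Lamin A and lamin C come from splice forms of Lmna, which these counts do not separate.

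Since the lamins fell by different amounts, the make-up of lamin RNA differed between passages. The deposited FPKM values, which scale reads for gene length, allow levels to be set side by side within a library. The length used is not stated, and levels between genes depend on it. Exon bases pooled over annotated splice forms are 5838 for Lmna, 2962 for Lmnb1 and 4286 for Lmnb2. Lmna made up 87.3%, 88.7% and 89.2% of the summed lamin FPKM in the P6 α-amyrin, β-amyrin and vehicle libraries and 74.7%, 74.1% and 75.3% in the P1 ones. Lmnb1 made up 8.13%, 6.99% and 6.62% at P6 and 19.9%, 20.7% and 19.5% at P1 in the same order of treatments. Lmnb2 had a share of 4.19% to 4.56% at P6 and 5.19% to 5.47% at P1. The summed lamin FPKM was 111 to 115 at P6 and 160 to 181 at P1, with no overlap.

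The ratio of Lmna to Lmnb1 FPKM was 10.7, 12.7 and 13.5 in the P6 α-amyrin, β-amyrin and vehicle libraries and 3.76, 3.59 and 3.87 in the P1 ones. Lmnb1 over Lmnb2 was 1.78, 1.61 and 1.58 at P6 and 3.63, 3.97 and 3.75 at P1. Within P6, the α-amyrin library had the lowest Lmna to Lmnb1 ratio and the highest Lmnb1 to Lmnb2 ratio. As log2 ratios, Lmna over Lmnb1 averaged 3.61 ± 0.17 at P6 and 1.90 ± 0.05 at P1 (SD, n = 3 each), a difference of 1.71, and Lmnb1 over Lmnb2 differed by -1.19. An exact two-sided permutation test of 3 against 3 libraries gave p = 0.1 for each of 4 ratios tested, also after adjustment, which is the smallest p this design allows.

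**Figure D2:**
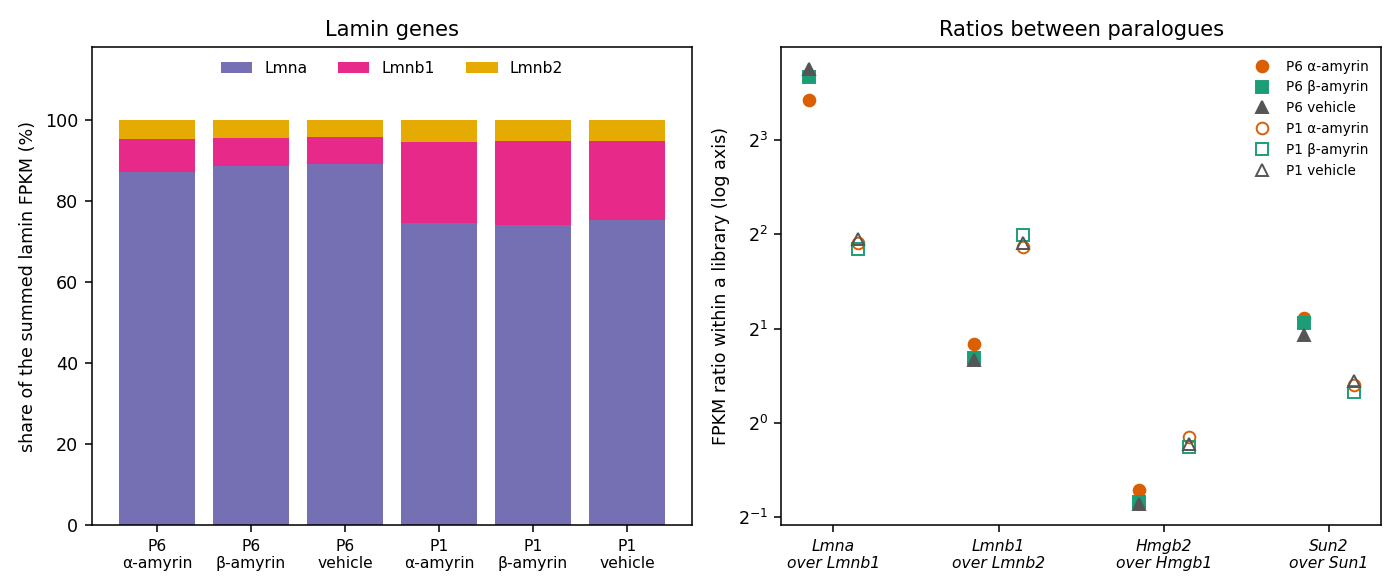
Left, share of each lamin gene in the summed lamin FPKM (%) of each library. Right, FPKM ratio of 4 gene pairs within each library on a log axis, with filled symbols for P6 and open symbols for P1. Lmna holds 87.3% to 89.2% at P6 and 74.1% to 75.3% at P1, and the passages are apart for all 4 ratios.

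Among the membrane proteins, Lbr and Tmpo fell most. Lbr encodes the lamin B receptor, which binds B-type lamins and heterochromatin protein 1 and is also a sterol C14 reductase (ENSMUSG00000004880, mm10 chr1:181815335-181843046, minus strand). It measured 28.6, 25.2 and 35.6 CPM in the P6 α-amyrin, β-amyrin and vehicle libraries and 80.6, 81.7 and 79.0 CPM in the P1 ones. The 3 P1 libraries lay close together, whereas at P6 both amyrin libraries were below vehicle. The mean was 29.8 ± 5.31 CPM at P6 and 80.5 ± 1.33 CPM at P1 (SD, n = 3 each). The log2 change was -1.44 ± 0.10 (SE, edgeR adjusted p = 4.15e-05). In the annotation 440 exonic bases of Lbr, 9.24% of its exon bases, overlap the antisense gene Dnah14. Dnah14 had 68, 71 and 106 counts in the P6 α-amyrin, β-amyrin and vehicle libraries and 250, 241 and 221 in the P1 ones, at most 12.6% of the Lbr counts, and the sources used here do not say whether counting used strand.

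Tmpo encodes the LAP2 family of lamina-associated proteins (ENSMUSG00000019961, mm10 chr10:91147571-91181315, minus strand). It measured 74.8, 64.3 and 67.9 CPM in the P6 α-amyrin, β-amyrin and vehicle libraries and 176, 171 and 161 CPM in the P1 ones. No P6 library came near the lowest P1 library. Tmpo had a log2 change of -1.30 ± 0.05 (SE, edgeR adjusted p = 6.83e-06), and 4.17% of tested genes were lower. The LAP2 splice forms, of which LAP2α is not bound to the membrane, are counted together here. In the annotation 244 exonic bases of Tmpo, 2.22% of its exon bases, overlap the antisense gene Gm26765.

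Emd encodes emerin, a LEM-domain protein that binds the chromatin protein BAF (ENSMUSG00000001964, mm10 chrX:74254687-74261548, plus strand). It measured 49.3, 48.0 and 47.9 CPM in the P6 α-amyrin, β-amyrin and vehicle libraries and 68.0, 69.7 and 60.9 CPM in the P1 ones. The P6 libraries were nearly level with each other and all below P1. Emd had a log2 change of -0.45 ± 0.06 (SE, edgeR adjusted p = 0.000539), with 20.0% of tested genes lower. In the annotation 343 exonic bases of Emd, 13.6% of its exon bases, overlap the pseudogene Gm14686 on the same strand. Gm14686 had 0 counts in every library.

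The SUN genes, Sun1 and Sun2, encode the inner membrane side of the link to the cytoskeleton, and only Sun2 was called. Sun1 (ENSMUSG00000036817, mm10 chr5:139200637-139249840, plus strand) measured 76.2, 77.6 and 81.3 CPM in the P6 α-amyrin, β-amyrin and vehicle libraries and 77.8, 82.1 and 81.2 CPM in the P1 ones. The passages overlapped, and the log2 difference was -0.04 with a 95% interval of -0.15 to 0.07 (edgeR adjusted p = 0.522). Sun2 (ENSMUSG00000042524, mm10 chr15:79724070-79742536, minus strand) measured 114, 112 and 109 CPM in the P6 α-amyrin, β-amyrin and vehicle libraries and 70.7, 72.7 and 76.9 CPM in the P1 ones. Every P6 library exceeded every P1 library, and the vehicle libraries of the 2 passages were the closest to each other. The log2 change was 0.61 ± 0.05 (SE, edgeR adjusted p = 0.000105), a 1.52-fold increase. In FPKM, Sun2 over Sun1 was 2.16, 2.09 and 1.90 in the P6 libraries and 1.32, 1.26 and 1.36 in the P1 ones, a log2 difference of 0.64. The antisense gene 4930520M14Rik overlaps 302 exonic bases of Sun1, 3.98% of its exon bases, and had at most 0.257% of the Sun1 counts. The antisense gene Gm16575 overlaps 147 exonic bases of Sun2, 2.71% of its exon bases. Gm16575 had 136, 214 and 188 counts in the P6 α-amyrin, β-amyrin and vehicle libraries and 156, 159 and 157 in the P1 ones. These were at most 8.79% of the Sun2 counts.

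Both HMGB genes were lower at P6, Hmgb2 by more. Hmgb2 (ENSMUSG00000054717, mm10 chr8:57511907-57515999, plus strand) measured 21.1, 17.1 and 17.8 CPM in the P6 α-amyrin, β-amyrin and vehicle libraries and 54.3, 53.0 and 46.9 CPM in the P1 ones. P6 held 36.3% of the P1 mean, and the P6 α-amyrin library was the highest of its passage. The log2 change was -1.47 ± 0.07 (SE, edgeR adjusted p = 1.32e-05), with 3.28% of tested genes lower. Hmgb1 (ENSMUSG00000066551, mm10 chr5:149046702-149184489, minus strand) measured 56.6, 50.4 and 51.8 CPM in the P6 α-amyrin, β-amyrin and vehicle libraries and 99.3, 103 and 90.9 CPM in the P1 ones. The passages did not overlap, and the log2 change was -0.89 ± 0.06 (SE, edgeR adjusted p = 3.79e-05). Hmgb2 over Hmgb1 in FPKM was 0.611, 0.560 and 0.552 in the P6 libraries and 0.898, 0.838 and 0.854 in the P1 ones, so Hmgb2 RNA was below Hmgb1 RNA in every library and further below at P6. The log2 ratio differed by -0.59. Hmgb1 has annotated pseudogenes, and counting could have split reads between them and the gene, so its level is uncertain to that extent. The 14 pseudogene entries held 61, 79 and 71 counts in the P6 libraries and 130, 105 and 141 in the P1 ones, which is 4.10% to 6.24% of the Hmgb1 counts. The antisense gene Uspl1, with up to 70.2% of the Hmgb1 counts, overlaps 42 exonic bases of Hmgb1, 0.836% of its exon bases.

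**Figure D3:**
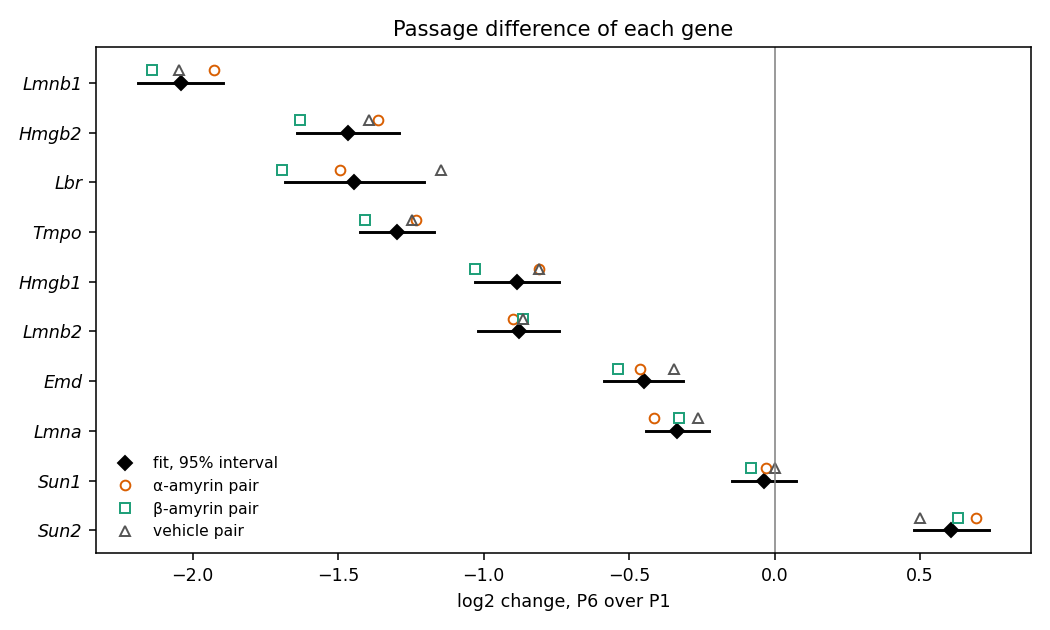
log2 change of P6 over P1 for each gene, ordered from the largest decrease. Diamonds are the edgeR fit over 6 libraries with its 95% interval, and open symbols are the ratios of the single α-amyrin, β-amyrin and vehicle library pairs. The 8 genes that fell lie left of 0, Sun1 spans 0 and Sun2 lies at 0.61.

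The order of levels by FPKM also differed between passages. At P6, Lmna (98.9 to 102) was followed by Sun2 (21.4 ± 0.74), Emd (19.5 ± 0.40), Hmgb1 (11.05 ± 0.62), Sun1 (10.4 ± 0.37), Lmnb1 (8.20 ± 0.94), Lbr (6.65 ± 1.17), Tmpo (6.43 ± 0.54), Hmgb2 (6.36 ± 0.71) and Lmnb2 (4.94 ± 0.26). At P1, Lmna (128 ± 7.22) was followed by Lmnb1 (34.3 ± 2.66), Emd (27.1 ± 1.75), Hmgb1 (20.7 ± 1.55), Lbr (18.1 ± 0.47), Hmgb2 (17.8 ± 1.61), Tmpo (15.98 ± 0.95), Sun2 (14.2 ± 0.48), Sun1 (10.8 ± 0.19) and Lmnb2 (9.08 ± 0.80), as mean ± SD over 3 libraries, with the range for Lmna at P6. The ranges of Hmgb1 and Sun1, of Lmnb1 and Lbr, and of Lbr, Tmpo and Hmgb2 overlapped at P6. At P1 the range of Hmgb2 overlapped those of Hmgb1, Lbr and Tmpo, while Lbr and Tmpo were apart. By FPKM, Lmnb1 was thus second to Lmna at P1 and below Sun2, Emd, Hmgb1 and Sun1 at P6. The order of genes depends on the gene length used for FPKM. Tmpo, with 10998 pooled exon bases against 2962 for Lmnb1, was below Lmnb1 at P6 by FPKM. By mean CPM it was above, at 69.0 against 23.9.

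Sequences upstream of the genes are shown for the 4 searched genes with a match to a cell cycle promoter element: Hmgb2, Lbr and Tmpo, which fell, and Sun2, which rose. RefSeq promoter windows (GRCm38.p6, 250 bases before to 50 after a start site) were used for 9 of the 10 genes, all but Lmnb1, in 14 windows. They were searched on both strands for CCAAT (the CCAAT box), TTTGAA (the CHR element, found in promoters of cell cycle genes) and GCGGGAA (an E2F core). CCAAT was present in 9 of the 14 windows (64.3%), against 37.4% of all 32851 windows. TTTGAA was present in 4 of the 14 (28.6%; Hmgb2, Lbr, Tmpo and Sun2), against 17.9% of all windows, and GCGGGAA in 1 of the 14 (7.14%; Tmpo), against 4.60% of all windows. Some genes have 2 windows, and no test was made of these shares. Each sequence below reads 5′ to 3′ on the strand of its gene, with the motif matches of either orientation in capitals; the motifs do not overlap.
Hmgb2, chr8:57511593-57511892, plus strand: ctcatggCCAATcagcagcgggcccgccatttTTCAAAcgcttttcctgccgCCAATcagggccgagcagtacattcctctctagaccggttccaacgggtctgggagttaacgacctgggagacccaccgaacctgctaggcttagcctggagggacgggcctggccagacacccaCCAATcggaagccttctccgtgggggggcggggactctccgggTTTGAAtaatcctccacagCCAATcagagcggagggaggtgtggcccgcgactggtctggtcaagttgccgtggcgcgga
Lbr, chr1:181842352-181842651, minus strand: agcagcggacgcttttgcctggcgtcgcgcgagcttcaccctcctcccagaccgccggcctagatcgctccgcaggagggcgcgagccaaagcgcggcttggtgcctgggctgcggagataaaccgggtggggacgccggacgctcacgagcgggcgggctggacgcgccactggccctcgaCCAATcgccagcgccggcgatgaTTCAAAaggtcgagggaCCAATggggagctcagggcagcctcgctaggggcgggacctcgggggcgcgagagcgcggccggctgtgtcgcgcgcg
Tmpo, chr10:91170501-91170800, minus strand: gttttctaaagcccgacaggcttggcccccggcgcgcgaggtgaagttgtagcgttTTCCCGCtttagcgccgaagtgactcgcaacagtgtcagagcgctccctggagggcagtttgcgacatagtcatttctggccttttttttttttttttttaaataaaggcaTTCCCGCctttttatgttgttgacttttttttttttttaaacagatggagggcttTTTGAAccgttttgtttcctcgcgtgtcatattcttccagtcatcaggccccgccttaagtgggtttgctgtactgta
Sun2, chr15:79742487-79742786, minus strand: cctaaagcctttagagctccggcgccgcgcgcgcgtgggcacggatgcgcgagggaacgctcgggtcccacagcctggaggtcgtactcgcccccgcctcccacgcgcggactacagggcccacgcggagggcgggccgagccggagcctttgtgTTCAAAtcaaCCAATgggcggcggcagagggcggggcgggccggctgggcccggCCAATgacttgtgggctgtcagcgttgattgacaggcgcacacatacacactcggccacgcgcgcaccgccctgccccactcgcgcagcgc
Hmgb2 held 4 CCAAT and 2 TTTGAA matches, 1 of these 30 bases before the start. Lbr held 2 CCAAT matches around a TTTGAA match 45 bases before the start. The second Tmpo window, the one shown, held 1 TTTGAA match and 2 GCGGGAA matches. The first, upstream of it at chr10:91171570-91171869, held 2 CCAAT matches and no match to TTTGAA or GCGGGAA. Sun2 held 2 CCAAT matches and 1 TTTGAA match 95 bases before the start, so a match was present both in genes that fell and in the gene that rose. Lmnb2, Lmna, Emd and Hmgb1, which also fell, had no TTTGAA match in any window. Lmnb2 had no match to any of the motifs. CCAAT was present in all other searched genes, among them Sun1, which was not called, and Sun2, which rose.

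The 3 treatment pairs gave the passage change separately, each from 1 library a side and with no test. The log2 ratio of P6 over P1 for Lmnb1 was -1.93 in the α-amyrin pair, -2.14 in the β-amyrin pair and -2.05 in the vehicle pair. For Lbr it was -1.49, -1.69 and -1.15, the widest spread of the 10 genes, with vehicle the smallest decrease. For Hmgb2 it was -1.36, -1.63 and -1.39, and for Tmpo -1.23, -1.41 and -1.25. Lmnb1, Lbr, Tmpo and Hmgb2 were at least 2-fold lower in all 3 pairs, and Hmgb1 also passed 2-fold in the β-amyrin pair at -1.03. That made 4, 5 and 4 of the 10 genes in the α-amyrin, β-amyrin and vehicle pairs, where 3.97%, 3.87% and 3.84% of tested genes were 2-fold lower.

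Other genes of the nuclear envelope and chromatin were read from lists of known members. Over all tested genes 29.1% were called lower and 30.0% higher, so calls in both directions are common in any list. Whether a list differed from these shares was not tested. The nuclear pore list resembled the lamina genes in direction: of 28 genes, 24 fell, none rose and 4 were not called, with a median log2 change of -0.54. Nup107 and Nup85, scaffold proteins of the pore, fell by 1.04 ± 0.05 and 0.87 ± 0.05, and Nup62 of the central channel fell by 0.78 ± 0.05 (log2, SE). Of 12 inner membrane and LEM-domain genes, 3 fell, 1 rose and 8 were not called, with a median of -0.08. Banf1, which encodes BAF, fell by 0.69 ± 0.06 and Tmem201 by 0.55 ± 0.06, whereas Tor1aip1, which encodes the lamina-binding protein LAP1, rose by 0.43 ± 0.05.

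Of 4 nesprin genes, partners of the SUN proteins, 1 fell and 1 rose. Syne2 (nesprin-2) measured 14.9, 14.9 and 17.6 CPM in the P6 α-amyrin, β-amyrin and vehicle libraries and 54.4, 53.6 and 56.6 CPM in the P1 ones, a log2 change of -1.80 ± 0.07 (SE, edgeR adjusted p = 4.56e-06). Syne1 (nesprin-1) measured 98.9, 104 and 97.9 CPM at P6 and 48.6, 58.2 and 56.2 CPM at P1, a log2 change of 0.89 ± 0.06 (SE, edgeR adjusted p = 3.47e-05). The passages did not overlap for either gene, and the directions were opposite. Syne3 had a log2 difference of -0.19 (edgeR adjusted p = 0.0952). The 5 genes that process prenylated lamins were all called, 3 lower and 2 higher, by small amounts: Icmt, the methyltransferase, rose by 0.40 ± 0.04, Fnta, a farnesyltransferase subunit, rose by 0.22 ± 0.05, and Rce1, the CAAX protease, fell by 0.35 ± 0.08. The number called was 3 without the P1 α-amyrin, the P1 β-amyrin or the P6 β-amyrin library.

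Of 13 other tested HMG genes, 7 fell, 2 rose and 4 were not called, with a median of -0.49. The nucleosome-binding Hmgn2 and Hmgn1 fell by 1.52 ± 0.07 and 0.85 ± 0.04, and the AT-hook gene Hmga2 by 1.22 ± 0.07. Hmgb4 was at 0 counts in every library. Of 12 heterochromatin genes, 8 fell, 3 rose and 1 was not called, with a median of -0.27. Cbx5 and Cbx3, which encode heterochromatin protein 1 isoforms, fell by 0.95 ± 0.05 and 0.59 ± 0.05, and Trim28, a corepressor that binds them, by 0.56 ± 0.04.

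The list of HMGB1 receptors and the HMGB2-containing SET complex held 8 genes: Ager, Tlr2, Tlr4, Myd88, Set, Anp32a, Apex1 and Nme1. Of these, Myd88 encodes an adaptor rather than a receptor. In this list 4 fell, 3 rose (Tlr2, Tlr4 and Myd88) and 1 was not called (Ager), with a median of -0.06. Tlr2 and Tlr4, receptors of extracellular HMGB1, rose by 2.40 ± 0.10 and 1.43 ± 0.07, and Set fell by 0.97 ± 0.05. The macrophage markers, all 17 of 17 higher with a median log2 change of 4.06, moved the same way as Tlr2 and Tlr4, and their part in this was not tested. Of 27 proliferation genes, 25 fell and 2 rose, and the median change was -1.17. Rrm2, Ccnb1 and Top2a fell by 1.55 ± 0.05, 1.52 ± 0.06 and 1.29 ± 0.05. The 27 proliferation genes summed to 907 to 1044 CPM at P6 and 1968 to 2129 CPM at P1. The 8 lamina and HMGB genes that fell and most proliferation genes were thus low in the same libraries. The proliferation genes that rose were E2f1 and E2f2, by 0.55 and 1.26. The part of proliferation in the lamina and HMGB result was not tested.

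**Figure D4:**
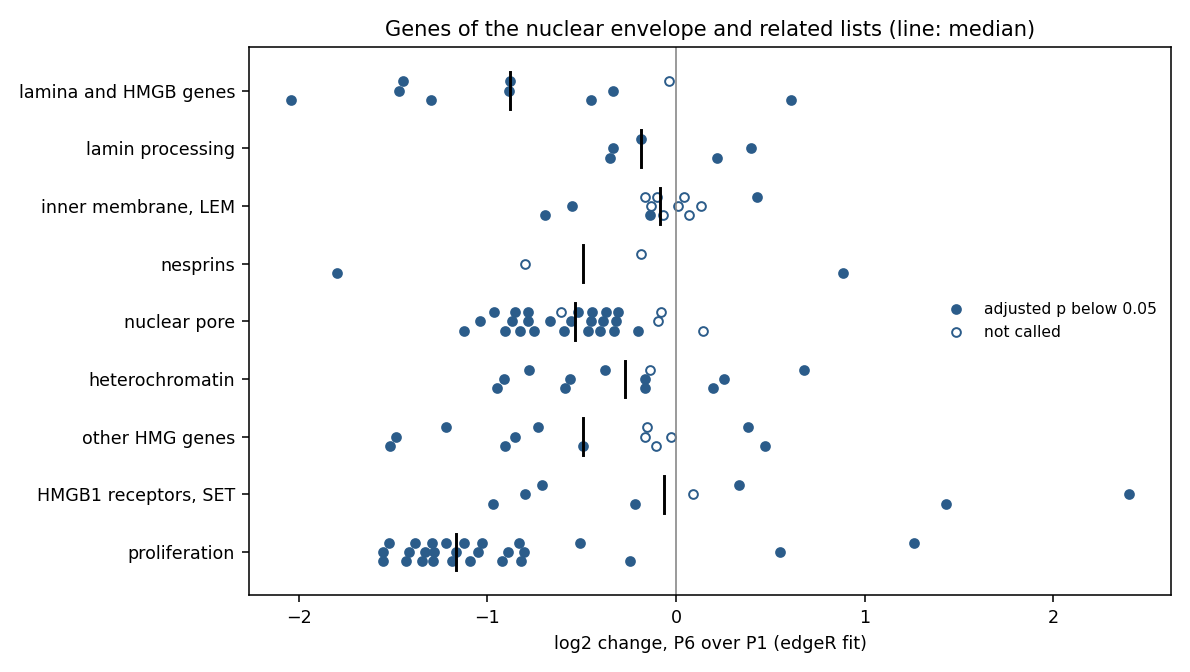
log2 change of P6 over P1 in the edgeR fit for the lamina and HMGB genes and 8 related lists, 1 point per tested gene. Filled points passed an adjusted p of 0.05 and the line marks the median of a list. The medians are -0.88 for the lamina and HMGB genes, -0.54 for the nuclear pore and -1.17 for proliferation.

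Genes with the most similar profiles were ranked by the root mean square difference of centred log2 CPM over the 6 libraries, among 11714 genes. For Tmpo these were Kif4 (0.034), Top2a (0.042) and Hmmr (0.051), which encode a kinesin, topoisomerase II alpha and a hyaluronan receptor of the spindle. For Hmgb2 these were its paralogue Hmgb3 (0.068), which fell by 1.48 ± 0.09, then Kif15 (0.074) and Hmmr (0.074). Hmgb1 was nearest to Cenpk (0.040), Pspc1 (0.041) and Emg1 (0.043), and Lmnb2 to Esco2 (0.028), a cohesin acetyltransferase. Lmnb1 was nearest to Ptgis (0.083), Pou3f3 (0.090) and Ezr (0.0999), the genes of prostacyclin synthase, a POU-domain factor and ezrin. Lbr was nearest to Lpar2 (0.077), Fads1 (0.093), a fatty acid desaturase, and Eno3 (0.101). Lmna, Emd, Sun1 and Sun2 were nearest to Samm50 (0.019), Rhoj (0.018), Prrc2a (0.017) and Sh3pxd2b (0.025). The values share the 6 libraries and describe likeness only.

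None of the 10 genes was called for either compound. In the edgeR fit 0 of 10 passed for α-amyrin against vehicle (background 0.0295% of tested genes), 0 for β-amyrin against vehicle (background 0.00590%) and 0 for α-amyrin against β-amyrin (background 0.0590%). At an unadjusted p below 0.05 in edgeR the counts were 2, 0 and 0 of the 10 genes. Over the 16962 tested genes they were 1995, 1739 and 1563. DESeq2 and limma called 0 of the 10 genes in each contrast. The compound contrasts share the vehicle libraries. Summed macrophage markers also differed between treatments, at 5891, 4302 and 5807 CPM in the P6 α-amyrin, β-amyrin and vehicle libraries and 351, 50.4 and 401 CPM in the P1 ones; their part in the compound values was not tested. The median log2 difference of the 10 genes was 0.11 for α-amyrin and 0.07 for β-amyrin, against 0.01 and 0.00 over all tested genes.

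The genes nearest to a call were Hmgb2 and Lmnb1 with α-amyrin. Hmgb2 differed by 0.22 on the log2 scale (95% interval 0.01 to 0.44, edgeR adjusted p = 0.399) and Lmnb1 by 0.19 (0.02 to 0.36, edgeR adjusted p = 0.383). With β-amyrin the log2 difference was 0.07 for Hmgb2 (-0.14 to 0.28) and 0.16 for Lmnb1 (-0.02 to 0.33). The Lmnb1 difference of 0.19 is small beside the passage change of -2.04, and P6 Lmnb1 stayed at 26.2 CPM or less in every treatment. Lbr had the lowest estimate of the 10 genes with either compound, at -0.14 (-0.43 to 0.15) for α-amyrin and -0.21 (-0.50 to 0.08) for β-amyrin.

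The isomers differ in where a ring E methyl group sits. At the same 20 µM and 3 days, no difference between them was called in the 10 genes. The log2 difference of α-amyrin minus β-amyrin ran from -0.05 for Sun1 to 0.15 for Hmgb2. The 95% interval was -0.22 to 0.36 for Lbr and -0.06 to 0.36 for Hmgb2, the widest of the 10 genes, and -0.16 to 0.11 for Lmna and -0.19 to 0.08 for Sun1, among the narrowest. All 10 intervals include 0. The smallest edgeR adjusted p was 0.619, for Tmpo, with a difference of 0.13 (-0.03 to 0.28).

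Single-library pairs showed where the compound values lay at each passage, with no test. None of the 10 genes was 2-fold away in any pair. The share of tested genes past 2-fold was 0.254% for α-amyrin over vehicle, 0.613% for β-amyrin over vehicle and 0.472% for α-amyrin over β-amyrin at P6, and 0.330%, 0.613% and 0.755% at P1. At P1, 8 of 10 genes were above vehicle with α-amyrin and 9 of 10 with β-amyrin. The medians were 0.13 and 0.11, against -0.0038 and 0.0009 over all tested genes. At P6, 7 and 5 of 10 genes were above vehicle. The medians were 0.10 and -0.02, against 0.016 and 0.008 over all tested genes. The vehicle library is the common denominator of these ratios, so they are not separate observations.

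Lbr was the gene whose compound ratios differed most between passages. At P6 its log2 ratio to vehicle was -0.32 with α-amyrin (counting interval -0.48 to -0.16) and -0.50 with β-amyrin (-0.65 to -0.35). At P1 the ratios were 0.03 and 0.05, so the amyrin libraries lay below vehicle only at P6. The passage-by-amyrin term, which takes both amyrin libraries of a passage as 1 group, was -0.45 ± 0.14 for Lbr (SE, 95% interval -0.79 to -0.10). Its p was 0.0187 before and 1.00 after adjustment over all genes by edgeR. None of the 10 genes passed for that term in edgeR, as for 0% of tested genes. At an unadjusted p below 0.05 in edgeR there was 1 of the 10, and 451 of the 16962 tested genes. DESeq2 and limma also called 0 of the 10. Over all genes, DESeq2 called 21 for that term, edgeR without a count filter 159 and limma without a filter 1399. Lmnb1 with α-amyrin was 0.26 above vehicle at P6 (counting interval 0.08 to 0.44) and 0.14 at P1 (0.06 to 0.22). Hmgb2 with α-amyrin was 0.24 above vehicle at P6 and 0.21 at P1, and with β-amyrin -0.06 at P6 and 0.18 at P1. Counting intervals cover counting error only and not the spread between cultures.

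**Figure D5:**
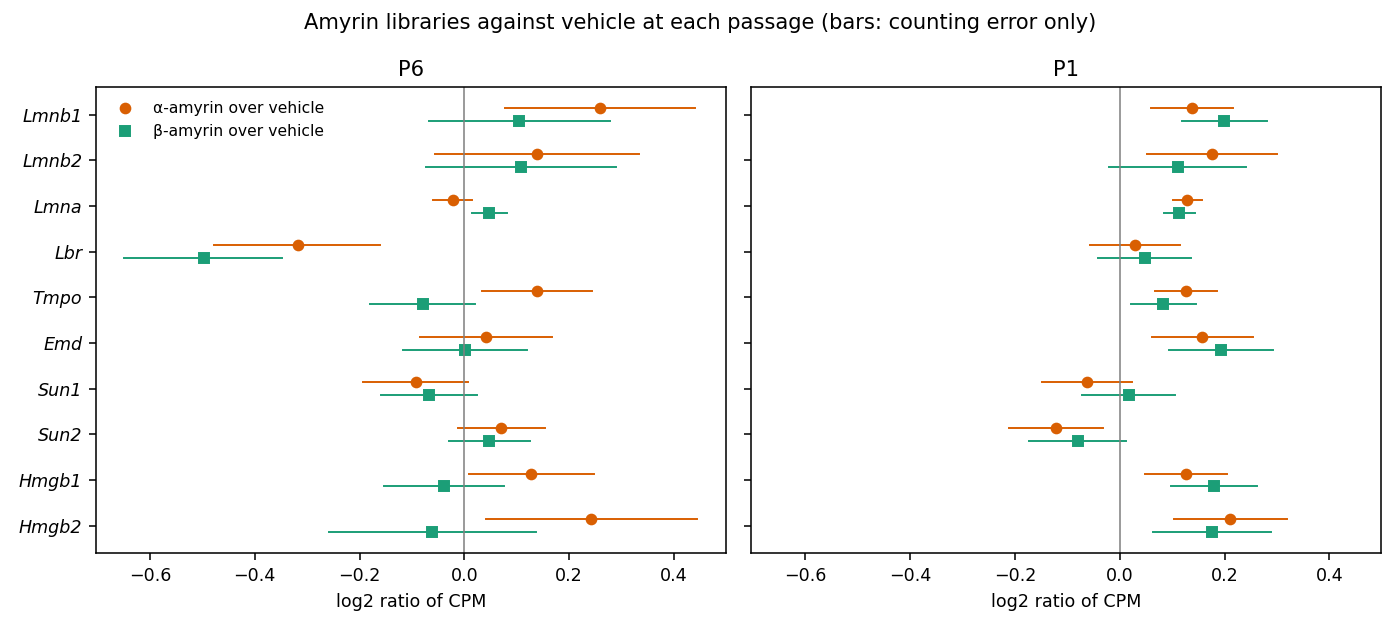
log2 ratio of CPM in each amyrin library over the vehicle library of the same passage, P6 on the left and P1 on the right. Circles are α-amyrin, squares β-amyrin, and bars are intervals for counting error only. Lbr lies at -0.32 and -0.50 at P6 and at 0.03 and 0.05 at P1.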

How the data were processed

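Poly(A) RNA was made into libraries with a directional kit, per the labels' protocols. The tools named with the build mm10 were HISAT2 2.1.0, featureCounts 1.6.3, FastQC 0.11.7, SAMtools 1.9 and Trimmomatic 0.38, per the submitters' processing notes, which give no role or setting such as strand use. The authors deposited raw read counts per gene and FPKM values; how FPKM was made is not stated. Counts were the input of every main test, and FPKM was used for levels between genes and as an alternative.

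Tests used the quasi-likelihood test of edgeR 4.0.16 in R 4.3.3, with TMM scaling, the filterByExpr filter by passage and additive terms for passage and treatment over all 6 libraries. Genes were called at a Benjamini-Hochberg adjusted p below 0.05 over all 16962 tested genes. The fit has 2 residual degrees of freedom, which come from departures from additivity, plus 4.83 prior ones, and a common biological coefficient of variation of 7.72%. A second fit held a passage-by-amyrin term. Each condition has 1 library, and nothing in the labels says that libraries came from separate cultures, so p-values measure only the spread among these libraries. Single pairs were given as log2 CPM ratios with a prior count of 2 and exact binomial 95% intervals, and counted as 2-fold where CPM was at least 5 in a library. Alternatives used DESeq2 1.42.0, limma 3.58.1, other scalings and filters, and leaving out each library.

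All 10 genes are named in each comparison, with at most 3 genes per list by smallest adjusted p and the 3 nearest profiles among genes with mean CPM of at least 5, not all of which are printed. Lists covered lamin processing, the inner membrane, nesprins, the nuclear pore, heterochromatin and HMG genes. They also covered HMGB1 receptors with Myd88 and the SET complex, proliferation and markers of 8 cell types. The genes and lists were chosen with earlier results of these data known. The scripts were tested on simulated data.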

Additional observations from a re-analysis of the deposited data

How the results depend on the processing

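The count of lamina and HMGB genes called for P6 against P1 was 9 in the reported fit and under each alternative except limma on log2(FPKM + 1) without a filter, where it was 4. The 5 genes lost there had log2 changes of -0.35 (Lmna, adjusted p = 0.126), -1.33 (Lbr, 0.0956), -0.45 (Emd, 0.0951), 0.56 (Sun2, 0.0769) and -0.85 (Hmgb1, 0.0688), all in the reported direction; the cause was not tested. Without each library in turn the count was 9 to 9. Over all alternatives the log2 change ran from -2.10 to -1.94 for Lmnb1, -1.61 to -1.33 for Lbr and 0.56 to 0.65 for Sun2. List genes called numbered 89, and 83 to 86 without 1 library (lamin processing 5, and 3 to 4); limma without a filter called 30. By list that fit called 0 for lamin processing, 0 for the inner membrane, 1 nesprin, 8 nuclear pore, 4 heterochromatin, 4 other HMG, 3 HMGB1 receptor and SET, and 10 proliferation genes. With limma on log2(FPKM + 0.1) it was 2 for lamin processing and 7 for heterochromatin.

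No lamina or HMGB gene was called for a compound under any alternative, and small differences, all on the log2 scale, changed sign. With total counts only, Sun2 was 0.000244 (α-amyrin), Tmpo -0.00203 (β-amyrin), and α-amyrin minus β-amyrin was 0.00674 for Lmna and 0.0236 for Sun2. With limma at either FPKM filter, these were 0.0151 for Sun2 (α-amyrin), and 0.0182 for Lmna and 0.0386 for Sun2 (α-amyrin minus β-amyrin); with log2(FPKM + 0.1), 0.0151, 0.0183 and 0.0405. Without a count filter the passage-by-amyrin term of Lmnb1 was -0.0104. With total counts only, the P1 Lmna ratio was 0.166 over vehicle with α-amyrin and 0.0612 for α-amyrin over β-amyrin. Without 1 library, α-amyrin minus vehicle ran -0.0152 to 0.12 for Lmna, -0.38 to 0.0812 for Lbr and -0.0986 to 0.0467 for Sun2; β-amyrin minus vehicle ran -0.46 to 0.00526 for Lbr, -0.0844 to 0.0785 for Tmpo, -0.0659 to 0.00613 for Sun1, -0.0939 to 0.0521 for Sun2, -0.0407 to 0.17 for Hmgb1 and -0.0715 to 0.18 for Hmgb2; α-amyrin minus β-amyrin ran -0.0312 to 0.12 for Lmnb1, -0.0921 to 0.0473 for Lmna, -0.0879 to 0.29 for Lbr, -0.058 to 0.0744 for Emd, -0.0589 to 0.0485 for Sun2 and -0.0485 to 0.17 for Hmgb1; and passage by amyrin ran -0.078 to 0.0686 for Lmnb1, -0.0742 to 0.00336 for Lmnb2, -0.20 to 0.0124 for Tmpo and -0.27 to 0.0276 for Hmgb2.

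The passage-by-amyrin term could not be fitted without a vehicle library, and counts per kilobase were not run because the table gives no gene length. With the pseudogene counts added, an alternative chosen after seeing the data, the Hmgb1 change was -0.87 (edgeR adjusted p = 3.43e-05). Over all genes, α-amyrin, β-amyrin and α-amyrin minus β-amyrin had 5, 1 and 10 calls in edgeR, 194, 114 and 119 in DESeq2, 464, 404 and 484 without a count filter, 332, 233 and 188 without the P1 β-amyrin library and 367, 317 and 439 without the P6 β-amyrin library; limma without a filter called 1302 genes for passage, against 10034. The reported fit pairs the passages by treatment, and without the treatment term 9 of the 10 genes were also called. No further paired analysis was possible because the labels give no replicate numbers. One library per condition limits every compound result.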

Other observations

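Lbr and Tm7sf2 encode the cell's pair of sterol C14 reductases, so genes of sterol synthesis were looked at beside Lbr; they were chosen after the values of Lbr were seen. Tm7sf2 measured 5.52, 5.77 and 12.9 CPM in the P6 α-amyrin, β-amyrin and vehicle libraries and 17.7, 12.9 and 20.4 CPM in the P1 ones, and its log2 passage change was -1.13 ± 0.18 (SE, edgeR adjusted p = 0.00155). Cyp51, which acts at the step before, measured 65.4, 60.9 and 153 CPM at P6 and 412, 387 and 494 CPM at P1, with a change of -2.33 ± 0.19. Hmgcs1, early in the pathway, measured 91.2, 90.8 and 221 CPM at P6 and 536, 480 and 593 CPM at P1, with a change of -2.12 ± 0.20. In all of these, as in Lbr, both amyrin libraries at P6 were below vehicle; in Tm7sf2, Cyp51 and Hmgcs1, but not in Lbr, this was so at P1 as well. The passage-by-amyrin term was -0.45 for Lbr, -0.78 for Tm7sf2, -0.98 for Cyp51 and -1.05 for Hmgcs1 on the log2 scale. Dhcr7, also of sterol synthesis, and the desaturase gene Fads1 were looked at as well. In both genes the amyrin libraries were below vehicle at each passage, and P6 was below P1 in every treatment. Their terms were -0.46 and -0.29, smaller in size than those of Tm7sf2, Cyp51 and Hmgcs1. The Dhcr7 term was about as large as that of Lbr. None passed, with edgeR adjusted p-values of 0.467 for Cyp51 and Hmgcs1 and 1.00 for Lbr and Tm7sf2.

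One pseudogene entry went the other way from Hmgb1: Hmgb1-ps8 had 13, 11 and 18 counts in the P6 α-amyrin, β-amyrin and vehicle libraries and 0, 1 and 2 in the P1 ones. It was singled out after its values were seen.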
